A study of Mus musculus with 12 samples.

Results

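The loss of the glucose transporter GLUT3 was examined in cultured T helper 1 (Th1) cells of the mouse, in 3 wild-type and 3 GLUT3-deficient libraries out of a series of 12. The other 6 libraries are T helper 17 (Th17) cells. Of the 45703 genes in the Th1 table, the 13487 that stood at or above 1 TPM in 3 or more of the 6 libraries were tested (TPM is the usual unit of transcript abundance, corrected for exon length and library size). The labels describe CD4+ T cells on the C57BL/6 background with the genotype wild type or Slc2a3-fl/fl Cd4-cre. Naive T cells had spent 3 days in culture with antibodies against CD3 and CD28 and cytokines that direct them to the Th1 fate. Cd4-cre is a transgene that is active from the thymic stage at which developing T cells express Cd4, so it deletes a floxed gene in the whole alpha beta T cell lineage, CD8 cells included. The labels do not say whether the wild-type cells carried floxed alleles or the Cre transgene, or whether the 3 libraries of a genotype came from separate mice or cultures. The p-values therefore cover no more than the spread among 3 libraries a group, and that spread may be technical.

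GLUT3 is encoded by Slc2a3 and belongs, like GLUT1 (Slc2a1), to the family of facilitative glucose carriers of the plasma membrane. Activated T cells raise glucose uptake and use the carbon for glycolysis, for the synthesis of nucleotides and lipids and for acetyl-CoA. Th1 cells are defined by the transcription factor T-bet (Tbx21) and make interferon gamma (Ifng), which acts on other cells and on the Th1 cells themselves. TPM is a share of 1 fixed total in each library. In bulk RNA of this kind, fewer cells of a type and less of a transcript per cell cannot be told apart. Values of 3 libraries are given in the order of replicates 1, 2 and 3, wild type first. A fold change is the difference of mean log2(TPM + 1) between GLUT3-deficient and wild-type libraries, given with its standard error (SE), and a gene is said to have risen or fallen where the Benjamini-Hochberg adjusted p of limma was under 0.05.

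The targeted gene was low in all 3 libraries with the deletion. Slc2a3 (chr6:122727809-122802363, minus strand, build GRCm38.p6) stood at 398, 95.6 and 64.7 TPM in the wild-type libraries and was down to 6.79, 4.49 and 7.97 TPM in the GLUT3-deficient ones. The groups did not overlap, and wild-type replicate 1 stood several fold above the other 2 wild-type libraries. The log2 fold change was -4.23 ± 0.57 (adjusted p = 0.000901), and without wild-type replicate 1 it was -3.46. Deposited values are summed over the whole gene, so reads from exons outside the deleted segment cannot be separated from a remaining full-length transcript.

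Recovered reads numbered 16596283 to 28496606 per Th1 library, and 13062 to 13302 genes reached 1 TPM. The labels give an RNA integrity number above 7 for every sample. For a gene with 1 kb of exon, 3 reads correspond to 0.19 to 0.35 TPM. In a principal component analysis of these 6 libraries the leading component (66.6% of variance) separated the genotypes, and the next (15.6%) set wild-type replicate 1 apart from the other libraries. Wild-type libraries differed more among themselves than GLUT3-deficient ones: the median absolute log2 distance from the rest of the group was 0.224 to 0.285 against 0.132 to 0.18. In wild-type replicate 1 several stress and hypoxia genes were high that are not in the list of genes to be named and were chosen after their values were seen. Ndrg1 stood at 1092, 233 and 137 TPM in the wild-type libraries, the endoplasmic reticulum oxidase gene Ero1a at 1521, 258 and 207 TPM and the heat shock gene Hspa1a at 191, 0.651 and 0.537 TPM. Counts over a gene list and fold changes of named genes that moved by more than 1.5 times without that library are given with their value without it.

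Of the 13487 genes, 4220 (31.3%) passed the threshold: 2374 (17.6%) were higher and 1846 (13.7%) were lower in GLUT3-deficient Th1 cells. At an unadjusted p under 0.05 there were 5792. Without GLUT3-deficient replicate 1 the number that passed was 2767, with 1570 higher and 1197 lower, and without GLUT3-deficient replicate 3 there were 1573 higher. Every GLUT3-deficient library lay above every wild-type library, or below every one, for 6351 genes (47.1%). A log2 fold change of at least 1 in size was found for 1015 of the genes that rose and 639 of those that fell, and one of at least 3 for 45 and 6. The median over all genes tested was 0.03. The genes that rose took 14.7 to 15.8% of all TPM in wild-type and 28.8 to 30.1% in GLUT3-deficient libraries, and the genes that fell took 27.5 to 30.5% and 15.2 to 15.9%. In 13 alternative fits, which changed the pseudocount, the filter, the scaling or the model or left out a library, 2432 of the 4220 calls (57.6%) held in every fit that tested the gene. Genes named below as risen or fallen belong to these 2432 unless the text says otherwise. Counts of a gene list are to be read against the shares of all genes tested, 17.6% higher and 13.7% lower. These shares include pseudogenes and noncoding RNAs. Of 10121 protein-coding genes tested, 2007 were higher and 1025 lower (median 0.09). Without GLUT3-deficient replicate 1, 2 or 3, calls over all genes were 1570, 1630 and 1573 higher and 1197, 1284 and 1383 lower. Without wild-type replicate 1, 2 or 3 they were 2600, 1989 and 2346 higher and 2105, 1640 and 1657 lower. List counts with a library left out are to be read against these.

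**Figure D1:**
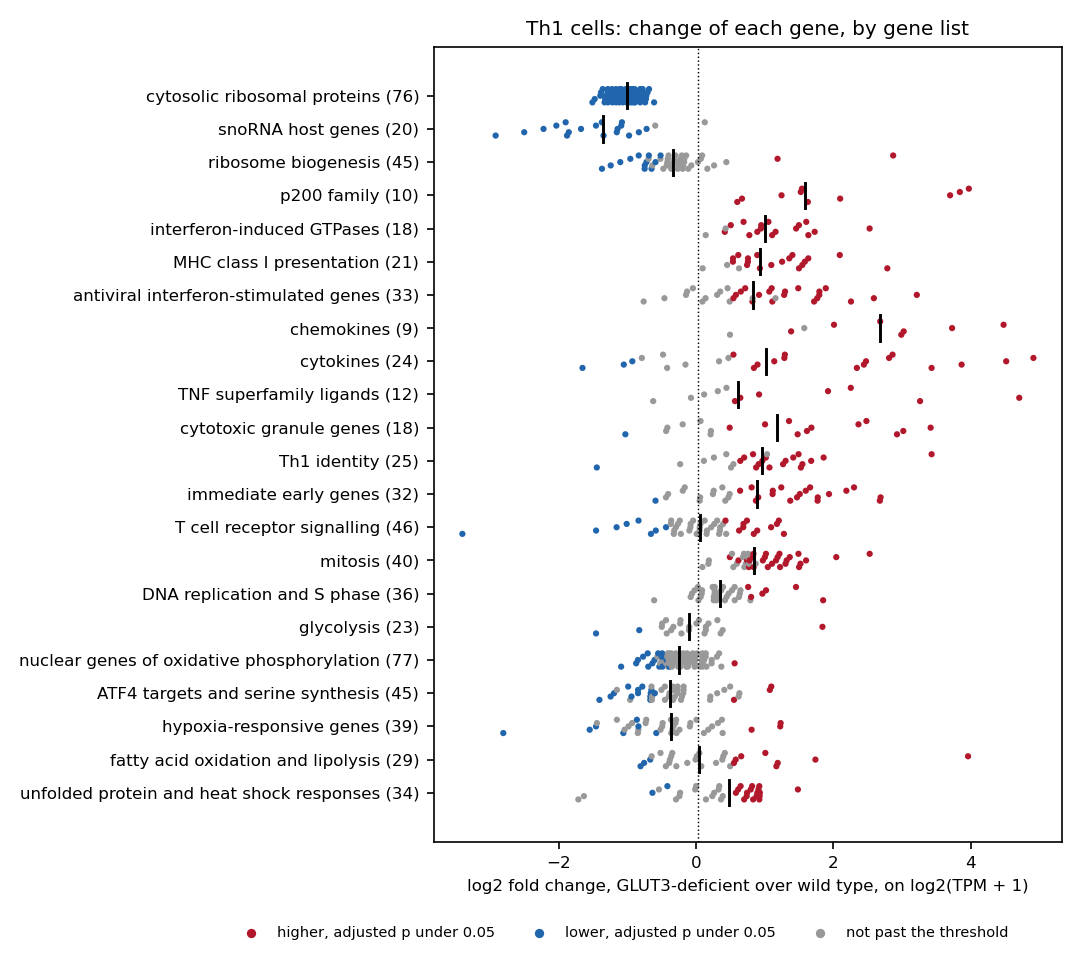
Log2 fold change of each tested gene (x axis, on log2(TPM + 1), GLUT3-deficient over wild type) in 22 gene lists, with the number of tested genes in brackets. Points are genes (red higher and blue lower at an adjusted p under 0.05, grey neither), black bars are list medians and the dotted line is the median of all 13487 genes (0.03). All 76 ribosomal protein genes lie left of 0, all 10 p200 genes lie right of it, and glycolysis genes lie on both sides.

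Markers of other cell types differed between the genotypes and were measured beside the results that follow. All 5 tested markers of gamma delta T cells rose: the 8 markers summed to 15.0, 33.7 and 29.2 TPM in wild-type and to 175, 278 and 209 TPM in GLUT3-deficient libraries. Trdc, the delta chain constant region, stood at 3.77, 8.17 and 4.53 against 46.3, 68.7 and 52.2 TPM. Of 7 tested markers of CD8 T cells and natural killer cells, the receptor genes Klrk1, Klrc1, Klrd1 and Klre1 and Eomes rose, while Cd8a (2.36, 2.33 and 2.46 against 0.534, 1.27 and 0.705 TPM) and Cd8b1 (23.95, 21.8 and 18.05 against 11.6, 11.8 and 12.8 TPM) fell. Their sum was 63.7 to 81.1 TPM in wild-type and 197 to 287 TPM in GLUT3-deficient libraries, and the natural killer cell markers Ncr1 and Klrb1c were under 2 TPM throughout. None of 5 tested B cell markers passed the test. Their sum was 88.1 to 112 TPM in wild-type libraries and 332, 475 and 68.5 TPM in GLUT3-deficient replicates 1 to 3, and without GLUT3-deficient replicate 3 all 5 rose. The mast cell and basophil genes Cpa3 and Mcpt8 rose in every fit and Fcer1a in 8 of 12 (its call was lost without wild-type replicate 2 or 3, among others), with a summed marker level of 1.20 to 2.32 TPM against 13.5, 57.3 and 11.1 TPM. Red cell and platelet markers summed to 11.7 to 25.2 TPM against 96.7, 197 and 59.1 TPM, and Pf4 and Ppbp rose, while without GLUT3-deficient replicate 3 all 6 tested markers did. Of myeloid markers, Tyrobp and Fcer1g rose (summed list 11.4 to 14.5 against 25.5 to 46.9 TPM), while Csf3r and S100a9 were at 0 in all 6 libraries and Csf1r and Adgre1 were at 0 in all but 1. Of 3 tested dendritic cell markers Cd74 and H2-Aa rose. H2-Ab1 did not pass the test (-0.80, adjusted p = 0.118) and fell without wild-type replicate 3. Siglech was at 0 in all 6 libraries, and the summed list ran over 384 to 1025 against 353 to 500.1 TPM, most of it H2-Ab1. Stromal markers summed to 7.32 to 11.1 against 14.9 to 19.8 TPM, and Col3a1 and Cdh5 were at 0. The part of these cells in the results was not tested. The helper T cell genes themselves were present throughout: none of 12 fell, 6 rose (2 or 3 without any 1 GLUT3-deficient library) with a median log2 fold change of 0.40, and Cd4 stood at 54.0, 44.8 and 48.0 against 74.8, 70.0 and 83.2 TPM, a rise whose call was lost without GLUT3-deficient replicate 3.

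Genes of the ribosome were lower in GLUT3-deficient Th1 cells, without exception among those tested. Cytosolic ribosomal proteins are the structural proteins of the small and large subunit, and their messages carry a pyrimidine tract at the very 5' end, the TOP motif, through which their translation is regulated together. All 76 genes fell, against 13.7% of all genes tested, with a median log2 fold change of -1.0 and a range of -1.51 to -0.61. They summed to 104906, 99933 and 91341 TPM in wild-type and to 49974, 49852 and 45932 TPM in GLUT3-deficient libraries. All 76 fell in every alternative fit too, with medians of -1.10 to -0.94. Rpl14, a large subunit protein, stood at 2375, 2317 and 1976 TPM in the wild-type and 859, 932 and 864 TPM in GLUT3-deficient libraries (-1.32 ± 0.13, adjusted p = 0.00021). Rps18, of the small subunit, stood at 3457, 3724 and 2757 against 1436, 1315 and 1178 TPM (-1.33 ± 0.15, adjusted p = 0.000426). Rplp0, of the ribosomal stalk, stood at 4439, 4095 and 3445 against 1692, 1798 and 1829 TPM, and Rpl37a at 1198, 1112 and 1089 against 448, 427 and 351 TPM. In each of these the 3 GLUT3-deficient libraries stood close together and far below the lowest wild-type library. Eef1a1, the elongation factor that brings transfer RNAs to the ribosome, fell less (4743, 4074 and 3590.3 against 2397, 2336 and 2753 TPM, -0.72 ± 0.14). Many processed pseudogenes are near copies of ribosomal protein messages and may share reads with them, so their counts are uncertain: of 1825 pseudogenes tested, 555 fell and 114 rose.

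The start regions of 3 ribosomal protein genes are shown because a pyrimidine tract spans or adjoins the annotated start. Capitals mark a C followed by at least 5 further pyrimidines. Each line runs from 40 bases before to 30 bases after the RefSeq start nearest to the deposited gene start, on the gene's strand, in GRCm38.p6, and for Rps9 that RefSeq start lies 87 bases from the deposited one: Rpl14 at chr9:120571477-120571546 (plus strand), Rps18 at chr17:33955636-33955705 (minus strand) and Rps9 at chr7:3704001-3704070 (plus strand).
Rpl14: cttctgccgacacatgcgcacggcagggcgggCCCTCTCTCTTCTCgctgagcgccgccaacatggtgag
Rps18: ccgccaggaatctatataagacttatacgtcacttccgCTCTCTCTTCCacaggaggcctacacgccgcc
Rps9: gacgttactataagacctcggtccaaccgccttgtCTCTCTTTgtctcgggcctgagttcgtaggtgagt
A tract of this kind beginning within 40 bases of the start was found in 48 of 56 ribosomal protein promoters with a RefSeq entry (85.7%), in 47.8% of the promoters of all genes tested, in 55% of those of genes that fell and in 45% of those of genes that rose. It was as common in the small lists of p200 genes (88.9% of 9) and interferon-induced GTPases (80% of 10), which rose. This motif was chosen after the ribosomal protein values had been seen.

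The small nucleolar RNA (snoRNA) host genes, whose introns give rise to the guide RNAs of ribosomal RNA modification and several of which carry a TOP tract, fell as well. Of 20 tested, 18 fell and none rose, with a median log2 fold change of -1.36, and 13 of the falls held in every fit. They summed to 1919.6, 1390.4 and 1459.9 TPM in wild-type and 427, 367 and 351 TPM in GLUT3-deficient libraries. Gas5 stood at 911, 646 and 613 against 150.1, 114 and 114 TPM (-2.50 ± 0.19, adjusted p = 9.45e-05). Zfas1 stood at 291, 235 and 205 against 40.1, 28.3 and 26.3 TPM (-2.92 ± 0.20, adjusted p = 5.51e-05). Snhg1 (165, 103 and 129.7 against 39.4, 30.7 and 33.0 TPM) and Epb41l4aos (23.1, 24.05 and 29.6 against 3.86, 5.74 and 4.56 TPM) fell likewise. Wild-type replicate 1 held the most Gas5 and Zfas1, and the lowest wild-type library was still several fold above the highest GLUT3-deficient one. Because the kits used do not keep strand, a host gene's values can include reads of any gene that overlaps it on the opposite strand.

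Ribosome biogenesis factors, which assemble the subunits in the nucleolus, followed less uniformly. Their list also holds Myc and related transcription factors, which include both genes of the list that rose. Of 45 tested, 12 fell and 2 rose (median -0.33), and 4 falls and both rises held in every fit. Leaving out 1 library other than wild-type replicate 1 gave 4 to 7 falls. The nucleolar chaperone Npm1 fell from 1020.4, 736 and 969 to 378, 377 and 383 TPM (-1.24 ± 0.15) and Nob1, an endonuclease of the small subunit, from 122, 132 and 133 to 58.6, 68.9 and 70.3 TPM. The rises were in Mxd1, a partner of MAX that opposes MYC, from 35.0, 21.5 and 20.4 to 205, 185 and 175 TPM (2.87 ± 0.21, adjusted p = 7.49e-05), and in Mycn, from 3.29, 2.94 and 2.27 to 7.08, 9.27 and 6.85 TPM. Myc itself, which drives ribosome production, stood at 217, 203 and 183 against 118, 124 and 161 TPM. Its fall (-0.59 ± 0.16, adjusted p = 0.0225) was lost without wild-type replicate 2 and without GLUT3-deficient replicate 1 or 2 (adjusted p = 0.0549, 0.102 and 0.0976).

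**Figure D2:**
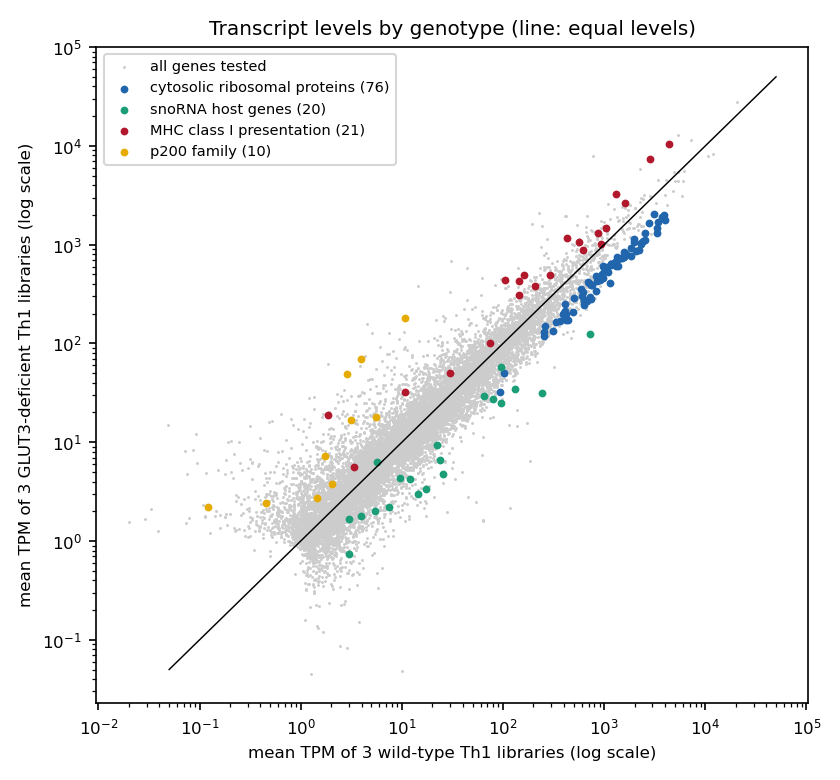
Mean TPM of each tested gene in the 3 GLUT3-deficient libraries (y axis, log scale) against the mean in the 3 wild-type libraries (x axis, log scale), with the line of equal levels. The 76 ribosomal protein genes form a band below the line at high levels, most of the 20 snoRNA host genes lie below it at lower levels, and the 21 genes of MHC class I presentation and the 10 p200 genes lie above it.

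Genes that interferon gamma is known to induce were higher in GLUT3-deficient cells. The guanylate binding proteins and immunity-related GTPases attack the vacuoles of intracellular pathogens. Of 18 genes of these families 16 rose, 13 of them in every fit, with a median log2 fold change of 1.00. Iigp1 stood at 6.85, 12.3 and 18.5 TPM in the wild-type and 68.6, 65.1 and 83.2 TPM in GLUT3-deficient libraries (2.53 ± 0.30, adjusted p = 0.000518). Gbp3 stood at 34.0, 40.1 and 36.3 against 127, 127 and 118 TPM (1.73 ± 0.14, adjusted p = 9.47e-05), Gbp7 at 24.7, 33.6 and 26.2 against 94.5, 92.6 and 75.0 TPM and Irgm1 at 117, 122 and 121 against 237, 249 and 265 TPM. No GLUT3-deficient library of these genes reached down to a wild-type one. Tgtp2 rose too, but it shares sequence with its near-identical neighbour Tgtp1, so how reads divide between them is uncertain. Gbp2, the most abundant of the family, did not pass the test (726, 1047 and 788 against 1099, 1073 and 1242 TPM, adjusted p = 0.0732).

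MHC class I molecules present peptides that the proteasome cuts and that the TAP transporter carries into the endoplasmic reticulum. Of 21 genes of this path 18 rose and none fell (median 0.93), and 14 rose in every fit. All 21 had groups that did not overlap, against 47.1% of all genes tested. The light chain B2m was among the most abundant transcripts of the cells, at 4891, 3829 and 4366 TPM in the wild-type and 12239, 9535 and 9464 TPM in GLUT3-deficient libraries (1.25 ± 0.15, adjusted p = 0.000542). The heavy chains H2-K1 (1105, 1709 and 1097 against 3312, 3259 and 3231 TPM) and H2-D1 (2582, 3506 and 2375 against 7473, 7252 and 7333 TPM) rose by similar folds. Class I heavy chains are close copies of each other, so reads may be split among them. Tap2 stood at 128, 168 and 133 against 405, 425 and 452 TPM, its partner Tap1 at 140.0, 169 and 125 against 285, 303 and 339 TPM, and Tapbp, which holds the empty class I molecule at TAP, at 130.1, 204 and 151 against 455, 511 and 522 TPM. Ubd, a ubiquitin-like tag for the proteasome, rose from 1.44, 2.31 and 1.82 to 23.6, 15.6 and 17.2 TPM.

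The p200 genes, a cluster on chromosome 1 whose products sense DNA, held some of the largest rises. All 10 tested rose (median 1.58), 8 of them in every fit. Ifi211 (chr1:173896339-173913087) stood at 11.5, 9.83 and 10.7 TPM against 186, 181 and 178 TPM (3.97 ± 0.14, adjusted p = 7.14e-06). Ifi205 stood at 4.39, 3.23 and 4.34 against 72.8, 67.7 and 69.2 TPM and Ifi204 at 3.27, 2.84 and 2.50 against 49.2, 56.5 and 42.4 TPM. In all 3 genes the libraries of a genotype lay within a narrow range. Members of this cluster resemble each other closely, so the division of reads among them is uncertain.

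Of 33 antiviral interferon-stimulated genes 20 rose and none fell (median 0.82), 15 of them in every fit, and 1 fell without wild-type replicate 1. Ifitm3, a membrane protein that blocks viral fusion, stood at 161, 302 and 212 against 2423, 2292 and 1499.8 TPM (3.21 ± 0.26, adjusted p = 9.47e-05), with GLUT3-deficient replicate 3 the lowest of its group. Usp18, which removes ISG15 from proteins and dampens type I interferon signalling, stood at 94.2, 105 and 114 against 345, 398 and 348 TPM, Isg20 at 13.8, 16.9 and 10.4 against 60.8, 51.8 and 45.9 TPM and Oas1a at 0.827, 1.21 and 1.09 against 5.05, 7.41 and 4.91 TPM. Isg15, a ubiquitin-like protein that type I interferon induces, did not pass the test (94.2, 33.5 and 19.2 against 101, 95.2 and 73.6 TPM, 1.16 ± 0.47, adjusted p = 0.0933). Wild-type replicate 1 held the most of its group, and without that library the gene passed (1.77, adjusted p = 0.00108). Ifit3 stayed under 2 TPM in all 6 libraries and was not tested. Of the interferon regulatory factors 4 of 11 rose, among them Irf1 (128, 181 and 125 against 419, 356 and 467 TPM), Irf7 (2.74, 2.15 and 2.23 against 11.5, 11.1 and 8.83 TPM) and Irf9 (32.0, 19.4 and 21.6 against 58.4, 55.5 and 64.1 TPM), while Irf4 (74.6, 56.0 and 81.3 against 70.8, 62.4 and 87.0 TPM) and Irf8 (327, 182 and 209 against 193, 184 and 249 TPM) did not pass the test. Socs1, a feedback inhibitor of cytokine signalling, rose from 83.4, 86.1 and 68.6 to 235, 209.5 and 254 TPM.

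The promoters of 5 of these genes are shown because their letters hold elements through which interferons act: the interferon-stimulated response element (ISRE), searched as GAAA, any 2 bases and GAAA again, and the gamma-activated site (GAS), searched as TTCNNNGAA, both on either strand. Capitals mark every match. Each line runs from 250 bases before to 20 bases after the RefSeq start on the gene's strand in GRCm38.p6: Gbp7 at chr3:142530086-142530355 (plus strand), Irgm1 at chr11:48871401-48871670 (minus strand), B2m at chr2:122147437-122147706 (plus strand), Ifi205 at chr1:174031736-174032005 (minus strand) and Ifitm3 at chr7:141010725-141010994 (minus strand).
Gbp7: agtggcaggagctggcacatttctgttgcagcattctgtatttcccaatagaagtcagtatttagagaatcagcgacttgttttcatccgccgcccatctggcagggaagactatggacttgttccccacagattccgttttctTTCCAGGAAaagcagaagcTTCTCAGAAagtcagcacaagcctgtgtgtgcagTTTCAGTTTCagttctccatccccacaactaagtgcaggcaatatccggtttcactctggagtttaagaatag
Irgm1: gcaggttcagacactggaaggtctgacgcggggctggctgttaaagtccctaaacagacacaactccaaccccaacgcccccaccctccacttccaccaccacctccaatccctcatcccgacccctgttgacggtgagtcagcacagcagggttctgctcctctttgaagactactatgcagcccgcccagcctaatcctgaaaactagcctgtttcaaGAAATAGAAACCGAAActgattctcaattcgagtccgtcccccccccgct
B2m: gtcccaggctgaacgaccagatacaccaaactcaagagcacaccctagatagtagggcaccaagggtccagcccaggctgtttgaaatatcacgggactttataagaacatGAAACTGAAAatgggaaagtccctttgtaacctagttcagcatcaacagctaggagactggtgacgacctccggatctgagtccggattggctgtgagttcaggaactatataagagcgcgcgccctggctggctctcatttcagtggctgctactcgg
Ifi205: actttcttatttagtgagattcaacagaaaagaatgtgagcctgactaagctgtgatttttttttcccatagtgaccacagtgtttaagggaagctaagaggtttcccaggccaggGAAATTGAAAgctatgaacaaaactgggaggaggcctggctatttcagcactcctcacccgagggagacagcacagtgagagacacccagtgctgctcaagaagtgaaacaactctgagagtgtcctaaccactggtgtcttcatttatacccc
Ifitm3: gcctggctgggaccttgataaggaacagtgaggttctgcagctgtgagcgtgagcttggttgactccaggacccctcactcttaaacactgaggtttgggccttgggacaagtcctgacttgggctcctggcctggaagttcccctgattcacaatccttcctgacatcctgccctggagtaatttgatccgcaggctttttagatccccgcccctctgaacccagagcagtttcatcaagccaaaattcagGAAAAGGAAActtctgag
Gbp7 holds 2 matches to GAS and 1 to ISRE. In Irgm1, 2 ISRE matches overlap in 1 run just before the start. The ISRE letters were found in 9 of the 10 GTPase promoters with a RefSeq entry (90%), in 66.7% of the 9 p200 promoters, in 42.3% of the 26 antiviral promoters and in 21.1% of the 19 class I promoters, against 3.31% of the 8855 promoters of genes tested. Over all genes that rose the share was 4.5%, and over those that rose by a log2 fold change of at least 1 it was 5.96%. GAS letters were in 60% of the GTPase promoters and 7.1% of all. A match is a description of the letters and not evidence of binding.

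The Th1 program itself was higher, with 1 exception among its receptors. Of 25 genes that define Th1 cells 17 rose and 1 fell (median 0.96), all of them in every fit. Tbx21 went from 131, 110.0 and 95.2 TPM in wild-type libraries to 206, 218 and 255 TPM in GLUT3-deficient ones. Il12rb2, the inducible chain of the interleukin 12 receptor, stood at 104, 95.4 and 94.0 against 171, 165 and 188 TPM (0.83 ± 0.13, adjusted p = 0.00191). Il18r1 (12.9, 12.9 and 14.6 against 41.1, 39.1 and 38.5 TPM) and Il18rap (4.04, 2.71 and 4.83 against 9.45, 11.5 and 10.6 TPM), the chains of the interleukin 18 receptor, rose together. The homeobox gene Hlx, a partner of T-bet, stood at 13.02, 9.57 and 7.59 against 34.1, 35.9 and 45.6 TPM (1.86 ± 0.21, adjusted p = 0.000452). Prdm1, which encodes BLIMP1, stood at 10.8, 7.40 and 7.85 against 23.9, 21.9 and 22.1 TPM, and Havcr2, which encodes TIM-3, at 7.75, 5.51 and 5.51 against 21.0, 24.8 and 15.3 TPM. Stat4, the transducer of interleukin 12, did not pass the test (89.9, 47.8 and 55.1 against 85.0, 83.0 and 105 TPM, adjusted p = 0.111). It rose without wild-type replicate 1 (adjusted p = 0.00531). Cxcr3, the chemokine receptor that T-bet induces, was the exception: it fell from 47.3, 88.5 and 45.4 to 17.7, 20.9 and 23.3 TPM (-1.45 ± 0.26, adjusted p = 0.00329).

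Secreted effectors held many of the largest rises. Of 24 cytokines tested 15 rose and 3 fell (median 1.02), 11 and 2 of them in every fit. Ifng stood at 733, 487 and 1115 against 8483, 8709 and 6739 TPM, the largest gain in TPM among the cytokines named here. The anti-inflammatory cytokine Il10 stood at 60.1, 58.1 and 67.1 TPM in the wild-type and 567, 462 and 357 TPM in GLUT3-deficient libraries (2.86 ± 0.18, adjusted p = 3.99e-05). Il24, another member of that family, stood at 56.9, 34.8 and 31.6 against 246, 214 and 204 TPM (2.44 ± 0.22, adjusted p = 0.000169). Csf1, the macrophage growth factor, stood at 1.76, 5.87 and 4.48 against 29.5, 31.2 and 35.5 TPM. Low cytokines rose as well: Il23a, a subunit of interleukin 23, from 3.29, 0.958 and 1.33 to 61.2, 77.0 and 47.0 TPM, Csf2 from 6.11, 5.22 and 3.30 to 14.5, 16.8 and 8.997 TPM and the Th2 cytokine Il4 from 5.30, 4.93 and 4.74 to 9.75, 11.4 and 8.26 TPM. Il22 stood at 1.98, 4.69 and 6.22 against 59.96, 111 and 54.2 TPM and its copy Iltifb at 0.562, 1.25 and 1.80 against 25.1, 38.3 and 19.8 TPM, and the division of reads between the pair is uncertain. Spp1, which encodes osteopontin, stood at 2.196, 5.81 and 5.55 against 147, 146 and 178 TPM. Of the 3 falls, the 2 that held in every fit were in cytokines not named here. Interleukin 2 (Il2), the growth factor of activated T cells, was the other, at 12.5, 3.29 and 15.6 against 1.42, 1.26 and 4.65 TPM. Its groups overlapped, and its call (-1.65 ± 0.52, adjusted p = 0.0409) was lost in 5 of the 12 fits that tested it, among them those that left out replicate 1 or 3 of the wild type, or 1 or 2 of the GLUT3-deficient group (adjusted p = 0.0853, 0.123, 0.128 and 0.109), while without wild-type replicate 2 it was -2.25. The gamma delta T cell markers given above rose in the same libraries, and their part in these rises was not tested.

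Chemokines that draw in T cells and monocytes rose with the cytokines. Of 9 tested 7 rose and none fell (median 2.68), 6 of them in every fit. Ccl3 stood at 22.3, 24.9 and 44.1 TPM in the wild-type and 686, 898 and 484 TPM in GLUT3-deficient libraries (4.48 ± 0.29, adjusted p = 4.36e-05). Ccl4 stood at 222, 164 and 198 against 1777, 1869 and 1180.1 TPM (3.02 ± 0.20, adjusted p = 4.96e-05) and Ccl5 at 43.8, 63.1 and 26.0 against 701, 633 and 403 TPM. In all 3 of these chemokines GLUT3-deficient replicate 3 was the lowest of its group and still far above the wild-type libraries. Ccl9 (0.692, 1.33 and 2.93 against 15.7, 27.0 and 15.5 TPM) and Cxcl11 (2.14, 1.08 and 1.62 against 16.3, 7.12 and 31.0 TPM), a ligand of CXCR3, rose from low levels. Xcl1 stayed under 3 TPM and was not tested.

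Ligands of the TNF superfamily followed. Of 12 tested 7 rose and none fell (median 0.61), 4 of them in every fit and 4 without wild-type replicate 2 or any 1 GLUT3-deficient library, 1 fell without wild-type replicate 3, and the size of the rise differed widely between members. Tnfsf9, the ligand of 4-1BB, stood at 21.0, 9.92 and 12.4 against 409.9, 394 and 349 TPM (4.70 ± 0.24, adjusted p = 2.23e-05). Cd70, the ligand of CD27, stood at 1.61, 2.68 and 3.69 against 36.8, 36.8 and 26.6 TPM (3.26 ± 0.24, adjusted p = 7.59e-05). Lymphotoxin alpha (Lta) stood at 432, 412 and 395 against 2063, 1868 and 1985 TPM and Tnf, its neighbour on chromosome 17, at 35.2, 21.2 and 19.2 against 86.2, 116 and 85.6 TPM. Cd40lg (123, 86.0 and 124 against 119, 110.2 and 128 TPM, adjusted p = 0.652) and Ltb (811, 653 and 323 against 373, 339 and 369 TPM, adjusted p = 0.141) did not pass the test. Ltb was the gene that fell without wild-type replicate 3 (adjusted p = 0.00289). Among the receptors of this superfamily 6 of 17 rose and 1 fell (2 without wild-type replicate 3). Tnfrsf9, the 4-1BB receptor, stood at 1023, 560.2 and 450.5 against 2173, 1782 and 1846 TPM and Tnfrsf1a at 11.97, 7.73 and 7.34 against 25.9, 23.8 and 29.1 TPM. The death domain receptor Tnfrsf25 fell from 50.6, 57.5 and 40.1 to 15.0, 15.1 and 16.8 TPM (-1.59 ± 0.17, adjusted p = 0.000365).

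Cytotoxic granule genes, better known from CD8 and natural killer cells, were higher. Of 18 tested 11 rose and 1 fell (median 1.18), 10 and 1 of them in every fit. Without wild-type replicate 1 the number that fell was 3, and without GLUT3-deficient replicate 2 it was 2. Granzyme B (Gzmb) was already high in wild-type libraries, at 2210.3, 2464 and 2044 TPM, and stood at 6204, 6781 and 4412 TPM in GLUT3-deficient libraries (1.35 ± 0.17, adjusted p = 0.00074). Gzmc stood at 32.5, 23.8 and 34.1 against 331, 401 and 263 TPM (3.41 ± 0.20, adjusted p = 3.23e-05), and Gzmf and Gzmg, close copies in the same cluster whose reads may be split, rose from under 3 TPM. Perforin (Prf1) stood at 17.4, 18.4 and 11.4 against 42.7, 48.5 and 43.2 TPM, and Serpinb9, the inhibitor that protects the cell from its own granzyme B, at 24.2, 15.0 and 27.8 against 69.9, 77.4 and 67.5 TPM. In the same libraries the killer receptors rose while both CD8 chains fell: Klrc1 stood at 19.7, 10.1 and 15.0 against 121, 121 and 76.5 TPM and Klrk1 at 15.4, 13.1 and 13.1 against 68.6, 66.4 and 57.4 TPM. The part of natural killer or other innate cells in the granzyme levels was not tested.

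**Figure D3:**
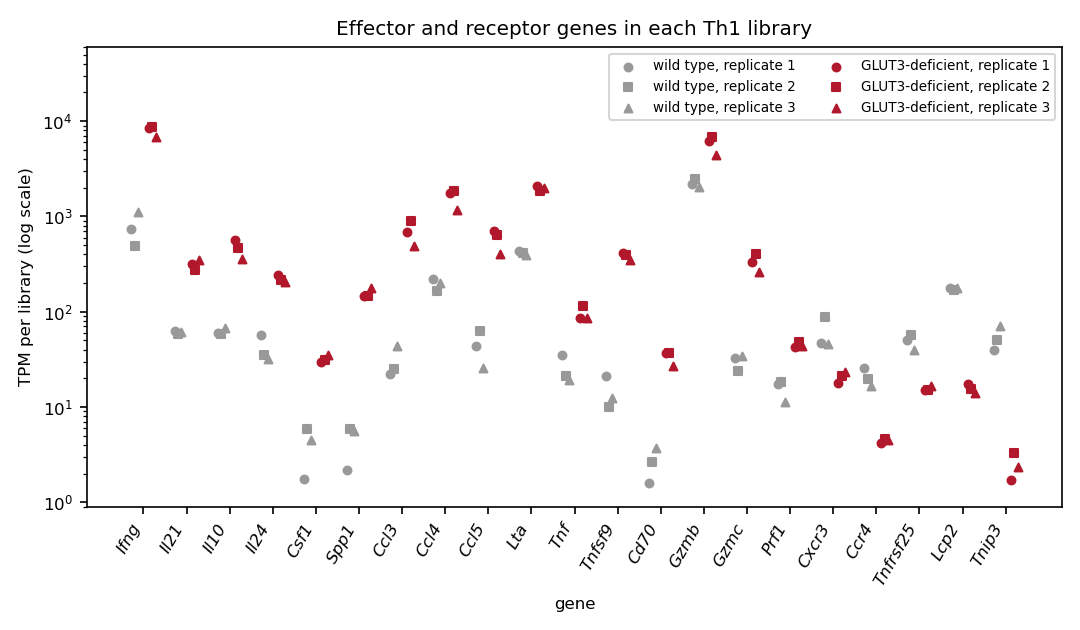
TPM of 21 effector, receptor and signalling genes (x axis) in each of the 6 Th1 libraries (y axis, log scale), grey for wild type and red for GLUT3-deficient, with circles, squares and triangles for replicates 1, 2 and 3. The groups are apart for every gene shown; the last 5 genes, Cxcr3 to Tnip3, are lower in the GLUT3-deficient libraries.

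Receptors for chemokines and cytokines changed in both directions. Of 26 chemokine and homing receptors 12 rose and 4 fell, 9 and 4 of them in every fit (median 0.37). Besides Cxcr3, the skin-homing receptors Ccr4 (25.6, 19.6 and 16.7 against 4.21, 4.67 and 4.54 TPM, -1.96 ± 0.18) and Ccr8 (33.6, 20.3 and 23.5 against 8.67, 9.46 and 13.97 TPM) fell. Itgb2, the beta chain of LFA-1, rose from 161, 179 and 139 to 355, 364 and 347 TPM and the receptor gene Gpr171 from 353, 174 and 274 to 909, 749 and 837 TPM. Ccr7 (1360.0, 736 and 598 against 896, 572 and 1116 TPM) and S1pr1 (55.5, 27.7 and 25.2 against 26.8, 29.3 and 30.1 TPM), which guide cells into and out of lymph nodes, did not pass the test. Of 25 cytokine receptor genes 14 rose and 1, Il23r, fell (median 0.73). Il7r, the receptor for the survival cytokine interleukin 7, stood at 102, 42.6 and 52.6 against 214, 159 and 171 TPM, Il2ra at 195, 185 and 255 against 367, 362 and 331 TPM and Ifnar1, of the type I interferon receptor, at 11.2, 6.61 and 8.16 against 26.5, 23.9 and 32.1 TPM.

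T cell receptor signalling genes as a list did not move 1 way: of 46 tested 11 rose and 8 fell, with a median of 0.06 against 0.03 for all genes. Without GLUT3-deficient replicate 3 the number that rose was 7, and without replicate 1 or 2 the number that fell was 5. The largest change was in Lcp2, which encodes SLP-76, the scaffold that joins the kinase ZAP70 to phospholipase C gamma. Lcp2 (chr11:34046928-34092281) stood at 178, 167 and 176 TPM in the wild-type and 17.6, 15.3 and 13.9 TPM in GLUT3-deficient libraries (-3.40 ± 0.14, adjusted p = 1.47e-05), with almost no spread inside either group. Themis fell from 42.2, 33.7 and 43.9 to 23.1, 18.8 and 23.6 TPM and the phosphatase Ubash3a from 19.9, 19.6 and 15.8 to 7.02, 9.14 and 9.88 TPM. The inhibitory coreceptors Cd5 (228, 163 and 159 against 409.6, 391 and 530.0 TPM) and Cd6 (278, 217 and 199 against 444, 459 and 575 TPM) and the Ras activator Rasgrp1 (22.7, 14.1 and 15.6 against 41.0, 37.3 and 44.1 TPM) rose. Lck, the first kinase of the pathway, stood at 673, 863 and 734 against 685, 783 and 885 TPM (adjusted p = 0.827).

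Immediate early genes, which are switched on within minutes of receptor signalling, were higher. Of 32 tested 19 rose and 1, Myc, fell (median 0.89), and 17 of the rises held in every fit. Leaving out wild-type replicate 3 gave 2 falls, and leaving out replicate 2 of the wild type, or replicate 1 or 2 of the GLUT3-deficient group, gave 0. Dusp2, a nuclear phosphatase of ERK, stood at 275, 249 and 202 against 1722, 1348 and 1598 TPM (2.69 ± 0.16, adjusted p = 3.23e-05), and Dusp1 stood at 33.2, 32.9 and 25.3 against 149, 133 and 142 TPM. The antiproliferative gene Btg2 stood at 37.1, 23.4 and 18.6 against 180.1, 146 and 177 TPM (2.67 ± 0.24, adjusted p = 0.000159), and Fos at 12.6, 15.8 and 10.7 against 39.3, 37.9 and 52.8 TPM. Jun did not pass the test (82.4, 74.0 and 45.0 against 48.1, 41.0 and 55.2 TPM). The AP-1 letters TGANTCA were found, on either strand, in 7.31% of the promoters of genes that rose, in 10.1% of those that rose by a log2 fold change of at least 1, in 4.4% of those that fell and in 4.84% of all. Among the NF-kB factors and their feedback genes 9 of 22 rose and 1 fell (median 0.45), and without wild-type replicate 1 the counts were 13 and 2, and 5 rose without any 1 GLUT3-deficient library. Nfkb2 rose from 16.2, 12.2 and 11.8 to 33.3, 33.5 and 41.2 TPM and Tnip1, a partner of the deubiquitinase A20, from 23.5, 13.8 and 13.9 to 37.3, 40.4 and 45.0 TPM. Its relative Tnip3 was the gene that fell, from 39.4, 50.8 and 70.8 to 1.71, 3.32 and 2.34 TPM (-3.97 ± 0.25, adjusted p = 3.93e-05).

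Inhibitory receptors rose in part. Of 23 tested 10 rose and 2 fell (median 0.52), and without GLUT3-deficient replicate 1 only 1 fell. Pdcd1, which encodes PD-1, stood at 40.8, 36.3 and 37.4 against 85.7, 98.5 and 99.1 TPM (1.28 ± 0.14, adjusted p = 0.00037), and its ligand gene Cd274 at 12.6, 4.24 and 6.36 against 38.7, 33.9 and 42.8 TPM. Lilrb4a (109.6, 114 and 100.2 against 348, 435 and 305 TPM) and the ectonucleotidase Entpd1 (14.2, 9.59 and 7.53 against 41.6, 38.6 and 35.5 TPM) rose as well. Ctla4 (1961, 778 and 927 against 1211, 743 and 1070.0 TPM), Lag3 (5.65, 8.79 and 4.85 against 8.11, 7.32 and 6.95 TPM) and the costimulator Icos (477, 362 and 335 against 296, 278 and 263 TPM) did not pass the test, and Ctla4 was highest in wild-type replicate 1. Icos fell in 4 of 13 alternative fits, among them that without wild-type replicate 3.

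Genes of other T cell states rose in part, and some fell. Of 20 Th17 genes 10 rose and 3 fell (median 0.69, partly through cytokines already named), where 17.6% and 13.7% of all genes did. Ahr fell from 2.14, 2.38 and 2.82 to 0.269, 0.669 and 0.402 TPM and Il23r from 16.5, 15.2 and 14.3 to 3.72, 3.72 and 2.94 TPM. Maf rose from 3.28, 2.45 and 3.96 to 13.3, 8.68 and 8.46 TPM, and the paired membrane genes Tmem176a (4.93, 9.46 and 7.07 against 77.0, 88.8 and 68.0 TPM) and Tmem176b (3.63, 10.1 and 5.15 against 65.6, 74.6 and 59.7 TPM) rose by 3.31 ± 0.22 and 3.31 ± 0.29. Il17a stood at 0, 0.222 and 0.427 TPM in the wild-type and 5.76, 15.4 and 1.69 TPM in the GLUT3-deficient libraries, against 20.1, 18.3 and 21.96 TPM in the 3 wild-type Th17 libraries, which are in a table made separately and were not tested against these. Its rise (2.47) was 1.82 without GLUT3-deficient replicate 2 and 3.13 without replicate 3, and it was lost with no filter on low TPM (adjusted p = 0.0506). Gata3, the Th2 factor, stood at 7.19, 2.97 and 2.80 against 3.93, 3.17 and 3.82 TPM (adjusted p = 0.812), and Foxp3, the factor of regulatory T cells, at 4.50, 5.90 and 6.91 against 3.86, 3.14 and 4.91 TPM (adjusted p = 0.132). Within the list of regulatory T cell and interleukin 2 response genes, of which 6 of 13 rose, Gpr83 (2.62, 2.78 and 1.42 against 19.4, 16.6 and 19.2 TPM) and Lrrc32 (3.16, 2.82 and 1.68 against 17.4, 9.79 and 19.8 TPM), the surface anchor of latent TGF-beta, rose the most after Il10. Of 22 naive and memory genes 6 rose and 3 fell (median -0.02), and without wild-type replicate 3 or any 1 GLUT3-deficient library 2 or 3 rose. Id3 fell from 439, 366 and 376 to 111, 98.8 and 161 TPM (-1.69 ± 0.19) and Dapl1 from 20.3, 14.1 and 17.8 to 3.14, 1.56 and 2.64 TPM, while Tcf7 (9.51, 10.4 and 13.7 against 6.29, 5.38 and 9.68 TPM) and Lef1 (95.6, 81.6 and 89.7 against 64.1, 76.7 and 76.6 TPM) did not pass the test. Tcf7 fell in 4 of 13 alternative fits, among them that without GLUT3-deficient replicate 3.

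Genes of mitosis rose, and fewer passed with any 1 GLUT3-deficient library left out. Of 40 mitosis genes 26 rose and none fell (median 0.84), 12 of them in every fit. They summed to 2082, 4501 and 4328 TPM in wild-type and to 6254, 6523 and 6491 TPM in GLUT3-deficient libraries, so wild-type replicate 1 was the lowest. Without that library 25 rose with a median of 0.57, and without GLUT3-deficient replicate 1, 2 or 3 the number was 15, 14 and 13. With those GLUT3-deficient libraries left out in turn, 1570, 1630 and 1573 of all genes tested rose, against 2374 in the main fit. Anln, the scaffold of the cleavage furrow, stood at 2.54, 3.65 and 4.27 against 22.4, 23.6 and 27.8 TPM (2.53 ± 0.19, adjusted p = 9.45e-05). Prc1, which bundles the central spindle, stood at 18.7, 45.3 and 43.1 against 136, 145 and 139.5 TPM, its motor partner Kif23 at 13.3, 29.3 and 31.3 against 72.4, 70.7 and 72.8 TPM and the kinase Aurka at 58.3, 119 and 115 against 205, 232 and 216 TPM. Mki67 (8.83, 14.7 and 19.9 against 23.1, 25.3 and 23.2 TPM) and Ccnb1 (91.3, 212 and 224 against 262, 276 and 291 TPM) were higher in each GLUT3-deficient library than in any wild-type one but did not pass the test (adjusted p = 0.054 and 0.0912). Of 36 genes of DNA replication 6 rose, with a median of 0.35 that was 0.09 without wild-type replicate 1, while 1 fell in that fit and 3 rose without GLUT3-deficient replicate 2. Ccne2, the cyclin of S phase entry, stood at 10.7, 10.4 and 28.3 against 57.4, 53.7 and 56.8 TPM and the clamp loader subunit Rfc3 at 101, 175 and 144 against 395, 355 and 376 TPM, whereas Pcna and Mcm5 did not pass the test. Some inhibitors of the cycle rose alongside: Cdkn1a, which encodes p21, from 629.8, 411 and 396 to 1135, 799 and 1119 TPM and Cdkn2c, which encodes p18, from 11.9, 25.1 and 15.6 to 56.7, 72.4 and 50.5 TPM. Among the 23 tested genes of the list of cell cycle inhibitors and p53 targets, 5 rises and 1 fall held in every fit.

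Among 9 tested glucose transporters and their regulators 4 rose and 1, the targeted gene, fell. Slc2a1, the other main carrier of T cells, stood at 475, 282 and 243 against 567, 456 and 678 TPM. Its groups overlapped, and its call (0.81 ± 0.26, adjusted p = 0.041) was lost in 6 of 13 fits, among them those that left out replicate 2 or 3 of the wild type, or 1 or 3 of the GLUT3-deficient group (adjusted p = 0.119, 0.113, 0.11 and 0.148). Slc2a6, which encodes the lysosomal carrier GLUT6, rose from 4.71, 9.04 and 10.3 to 22.7, 26.9 and 26.8 TPM (1.61 ± 0.25, adjusted p = 0.00187). Txnip, which promotes removal of glucose carriers from the membrane and is itself induced by glucose through MondoA, stood at 19.1, 25.7 and 28.2 against 68.1, 87.5 and 74.6 TPM, and Mlxip, which encodes MondoA, at 3.72, 4.15 and 3.90 against 7.43, 8.31 and 8.10 TPM. Arrdc4, a paralog of Txnip and another MondoA target, did not pass the test (1.42, 0.614 and 0.557 against 1.27, 2.84 and 1.20 TPM).

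Most transcripts of glycolysis did not pass the test. Of 23 tested 1 rose and 2 fell (median -0.10), and over the alternative fits 0 to 5 fell: 4 without wild-type replicate 3, 1 when replicate 1 or 2 of that group, or replicate 3 of the GLUT3-deficient group, was left out, and 0 without GLUT3-deficient replicate 1 or 2. Gapdh stood at 7593, 4988 and 3620.4 TPM in the wild-type and 4488, 4052 and 4845 TPM in GLUT3-deficient libraries, and Pkm at 2641, 2433 and 1759 against 1795, 1792 and 2192 TPM. In both genes the groups overlapped and wild-type replicate 1 was the highest of the 6. Ldha, which makes lactate, stood at 4348, 3937 and 3744 against 2958, 3012 and 3615 TPM without passing the test (-0.33 ± 0.13, adjusted p = 0.0843), and Hk2, the first enzyme of the path, at 24.9, 20.45 and 25.5 against 33.1, 30.6 and 27.7 TPM (adjusted p = 0.116). The gene that rose was Pfkfb1, an enzyme that makes and breaks down an activator of phosphofructokinase, from 2.69, 2.42 and 2.86 to 10.3, 12.2 and 13.9 TPM (1.84 ± 0.17). Of 10 genes of the pentose phosphate pathway 1 fell, a call lost when wild-type replicate 2, or replicate 1 or 3 of the GLUT3-deficient group, was left out, and of 42 genes of pyruvate oxidation, the TCA cycle and acetyl-CoA supply 3 rose and 5 fell (median -0.02). Without wild-type replicate 2 the number that fell was 3, and without GLUT3-deficient replicate 1 or 2 it was 2. The cytosolic NADPH makers Me1 (2.33, 1.47 and 1.37 against 8.71, 7.32 and 5.597 TPM) and Idh1 (6.95, 10.7 and 12.6 against 26.5, 22.7 and 26.4 TPM) rose, while Got1 of the malate-aspartate shuttle (194, 135 and 146 against 71.4, 84.1 and 82.8 TPM) and the mitochondrial pyruvate carrier subunit Mpc1 (43.5, 39.3 and 55.7 against 25.1, 24.3 and 29.4 TPM) fell. Acly, which turns exported citrate into acetyl-CoA, stood at 49.1, 64.0 and 66.4 against 64.4, 66.5 and 89.5 TPM (adjusted p = 0.273). Of 31 genes that write, erase or read histone acetylation 3 rose and 1 fell, of which 1 rise and no fall held in every fit. Without GLUT3-deficient replicate 2 or 3 only 1 rose. The number that fell was 0 without GLUT3-deficient replicate 1 or 2, 2 when replicate 1 of the wild type or 3 of the GLUT3-deficient group was left out, and 6 with voom on the recovered reads. Kat2b, an acetyltransferase, rose from 1.91, 1.67 and 2.62 to 10.9, 10.1 and 11.3 TPM (1.95 ± 0.17, adjusted p = 0.000155).

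Among nuclear genes of oxidative phosphorylation, falls outnumbered rises. Of 77 tested 15 fell and 1 rose (median -0.25), where 13.7% and 17.6% of all genes did, and 4 of the falls held in every fit. The number that fell was 33 without wild-type replicate 1, 7 without wild-type replicate 2, 7 when GLUT3-deficient replicate 1 or 2 was left out, and 5 without GLUT3-deficient replicate 3. The rise was lost without any 1 GLUT3-deficient library. The 4 genes were Cox7a2l, a factor of respiratory supercomplexes (251, 199.8 and 190.1 against 99.7, 99.998 and 97.2 TPM, -1.09 ± 0.15), Atp5g2, a subunit of the rotor of ATP synthase (276, 298 and 256 against 156, 151 and 144 TPM), Uqcr10 of complex III (295, 405 and 461 against 214, 239 and 185 TPM) and Ndufb5 of complex I (300.1, 307 and 313 against 199.9, 208 and 184 TPM). The core subunits Ndufs1 (53.3, 55.7 and 70.9 against 70.1, 68.1 and 89.6 TPM) and Atp5a1 (929, 962 and 966 against 861, 894 and 1073 TPM) did not pass the test. Genes encoded by the mitochondrial genome were not analysed here.

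Lipid genes held single large changes. Of 29 genes of fatty acid oxidation and lipolysis 8 rose and 3 fell (median 0.05), and without GLUT3-deficient replicate 1 or 3 the number that rose was 5. The number that fell was 1 without GLUT3-deficient replicate 1 or 2, 5 without wild-type replicate 1 and 9, against 6 rises, with voom on the recovered reads. Mgll, the lipase that releases the last fatty acid of a triglyceride, stood at 6.84, 10.05 and 5.47 TPM in the wild-type and 127, 123 and 132 TPM in GLUT3-deficient libraries (3.96 ± 0.20, adjusted p = 2.23e-05). The acyl-CoA dehydrogenases Acadm (44.0, 45.5 and 54.7 against 167, 157 and 162 TPM) and Acadl (287, 399 and 342 against 735, 664 and 657 TPM) rose, and Hadh, the enzyme of the third step of the cycle, fell from 109, 91.5 and 100.3 to 53.1, 48.6 and 70.2 TPM. Cpt1a, the gate of the path, did not pass the test (1.49, 2.60 and 4.05 against 1.92, 2.17 and 3.81 TPM). Of 38 genes of cholesterol and fatty acid synthesis 13 rose and 2 fell (median 0.31), 6 and 2 of them in every fit and 7 of the rises without GLUT3-deficient replicate 3. The sterol-responsive gene Insig1 (44.3, 35.3 and 52.5 against 79.7, 71.9 and 98.6 TPM) rose, and so did the efflux genes Abca1 (1.62, 1.10 and 0.885 against 2.94, 2.76 and 3.05 TPM) and Abcg1 (10.02, 8.02 and 4.52 against 16.6, 15.8 and 15.6 TPM). Elovl6, which lengthens palmitate, fell from 8.18, 10.5 and 11.2 to 2.28, 2.07 and 2.54 TPM (-1.72 ± 0.17, adjusted p = 0.000261).

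Among amino acid genes under the transcription factor ATF4 and their kin, 13 of 45 tested fell and 3 rose (median -0.39), 5 and 1 of them in every fit. Without GLUT3-deficient replicate 1, 2 or 3 the number that fell was 5, 6 and 8. The number that rose was 6 without wild-type replicate 1, and 1 when wild-type replicate 3, or replicate 1 or 3 of the GLUT3-deficient group, was left out. Asparagine synthetase (Asns) stood at 347, 192 and 164 against 90.8, 91.3 and 97.2 TPM (-1.24 ± 0.25, adjusted p = 0.00619), highest in wild-type replicate 1. The serine enzymes Psat1 (366, 319.9 and 326 against 190.3, 204 and 245 TPM) and Shmt2 (339, 334 and 295 against 160.4, 190.4 and 213 TPM) fell with it, and Phgdh (426, 413 and 379 against 221, 249 and 301 TPM) fell in all fits but that without GLUT3-deficient replicate 1 (adjusted p = 0.054). Atf4 itself stood at 397, 346 and 349.8 against 294, 266 and 303 TPM (adjusted p = 0.0791). Sesn2, a leucine sensor that restrains mTORC1, rose from 19.9, 17.2 and 14.3 to 33.2, 35.6 and 44.3 TPM. The promoter of Asns is shown because it holds, just before the start, the amino acid response letters TGATGNAA, which 10 of the 34 promoters of this list (29.4%) and 2.35% of all carried. It spans chr6:7693190-7693459 (minus strand) and is drawn 250 bases before to 20 bases after the start, with the match in capitals.
Asns: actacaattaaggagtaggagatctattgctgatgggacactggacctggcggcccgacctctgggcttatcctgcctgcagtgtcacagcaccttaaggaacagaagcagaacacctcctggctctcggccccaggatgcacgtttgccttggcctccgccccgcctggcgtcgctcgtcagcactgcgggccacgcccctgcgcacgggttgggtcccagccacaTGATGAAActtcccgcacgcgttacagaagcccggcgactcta

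Hypoxia-responsive genes mostly did not pass the test, and wild-type replicate 1 stood apart in them. Of 39 tested 7 fell and 3 rose with a median of -0.37, and without that library 4 fell, 5 rose and the median was -0.06. Without wild-type replicate 2 the number that fell was 4, and without GLUT3-deficient replicate 1 or 2 it was 3 and 2. Only 1 rose when replicate 2 or 3 of the wild type, or 1 or 3 of the GLUT3-deficient group, was left out. Ankrd37 stood at 290.0, 67.3 and 59.0 against 17.9, 10.6 and 14.8 TPM (-2.81 ± 0.53, adjusted p = 0.00435), and without wild-type replicate 1 its change was -2.08 (adjusted p = 0.000334). Hif1a, the oxygen-regulated factor, stood at 317, 203 and 245 against 624, 536 and 611 TPM and rose, while its targets Vegfa (11.2, 5.99 and 6.09 against 6.38, 3.95 and 7.88 TPM) and Bnip3 (1085, 513 and 497 against 655, 364 and 633 TPM) did not pass the test. Fam162a, another gene induced by hypoxia, fell from 1866, 1946 and 1449 to 1078, 824 and 987 TPM.

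**Figure D4:**
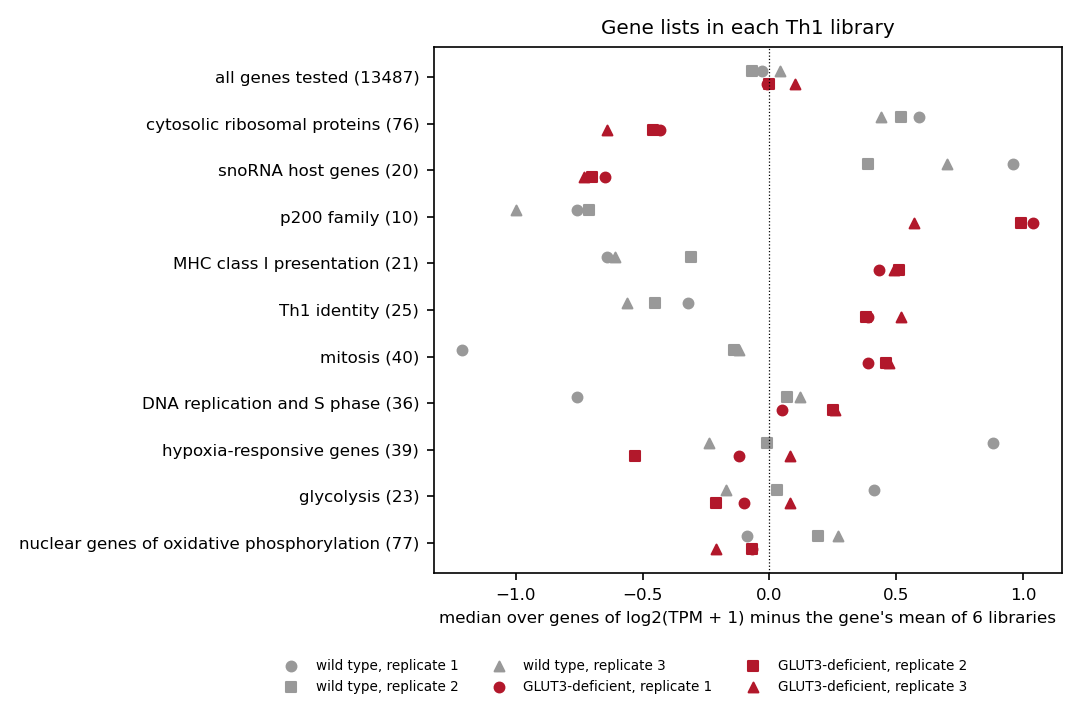
Median over the genes of a list of log2(TPM + 1) minus each gene's mean of the 6 libraries (x axis), for 11 sets of genes (y axis), grey for wild type and red for GLUT3-deficient, with circles, squares and triangles for replicates 1, 2 and 3. The genotypes are apart for ribosomal proteins, snoRNA hosts, p200, class I, Th1 and mitosis genes. Wild-type replicate 1 stands alone at -1.21 for mitosis and 0.88 for hypoxia-responsive genes.

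Stress and clearance genes shifted in part. Of 34 genes of the unfolded protein and heat shock responses 17 rose and 2 fell (median 0.48), 13 of the rises in every fit. Without GLUT3-deficient replicate 1 none fell, and 1 did when replicate 2 or 3 of that group, or 1 or 3 of the wild type, was left out. The chaperone Hspa5 stood at 861, 646 and 707 against 1251, 1398 and 1526 TPM, Creld2 at 71.5, 98.0 and 96.6 against 246, 255 and 240.3 TPM (1.48 ± 0.16, adjusted p = 0.000352) and the disulfide isomerase Pdia4 at 142, 155 and 150.3 against 259.9, 285 and 307 TPM. All 3 serve protein folding in the endoplasmic reticulum. Among 35 redox genes 5 rose and 6 fell (median -0.01), close to the shares of all genes tested (17.6% higher and 13.7% lower). Without GLUT3-deficient replicate 1 or 2 the number that fell was 2 and 1. The redox genes that rose include Srxn1, which repairs oxidized peroxiredoxins, at 2.18, 2.72 and 2.92 against 27.8, 25.2 and 24.7 TPM (2.90 ± 0.16, adjusted p = 2.92e-05). They also include glutaredoxin (Glrx) at 239, 325 and 247 against 1209, 1275 and 974 TPM. The lysosomal proteases Ctsd (232, 274 and 265 against 778, 815 and 765 TPM) and Ctsz (218, 245 and 228 against 643, 635 and 459.7 TPM) rose, and Ctsl (9.19, 5.05 and 5.29 against 2.00, 2.58 and 2.73 TPM) fell. Of 15 BCL2 family genes 4 rose and none fell (median -0.20; 2 fell without wild-type replicate 1), among them the pro-death Pmaip1, which encodes NOXA, from 16.5, 8.04 and 12.7 to 59.6, 45.4 and 56.8 TPM and the survival gene Bcl2a1d from 76.2, 51.1 and 70.9 to 178, 189 and 162 TPM, whose copies Bcl2a1a and Bcl2a1b share its reads. Bcl2 (72.5, 46.0 and 55.8 against 53.8, 43.3 and 45.7 TPM) and Mcl1 (141, 110.0 and 110.0 against 138, 123 and 146 TPM) did not pass the test. In the TGF-beta family 8 of 18 genes rose and 1 fell, and without any 1 GLUT3-deficient library 5 rose. The receptor gene Tgfbr2 rose from 15.4, 7.38 and 7.02 to 22.9, 23.98 and 25.6 TPM, and Acvrl1 fell from 61.9, 12.3 and 10.3 to 2.07, 2.02 and 1.75 TPM (-2.84 ± 0.56), a change that was -2.05 without wild-type replicate 1.

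Several large changes fell outside the lists. By the rule of size Ly6g fell from 37.2, 66.4 and 32.6 to 3.09, 1.81 and 3.48 TPM, Trib2, a pseudokinase that targets C/EBP alpha, from 78.9, 58.9 and 50.1 to 6.68, 6.86 and 8.76 TPM, Gatm, the first enzyme of creatine synthesis, from 153, 146 and 109 to 19.8, 18.8 and 25.3 TPM (-2.61 ± 0.18, adjusted p = 6.17e-05) and Sema4f from 40.8, 33.6 and 25.6 to 3.94, 4.17 and 4.74 TPM. Annexin A1 (Anxa1) rose from 8.87, 6.72 and 6.74 to 78.3, 87.6 and 70.6 TPM (3.25 ± 0.17, adjusted p = 2.23e-05), the lipid phosphodiesterase Smpdl3b from 3.84, 8.07 and 6.19 to 97.4, 89.8 and 90.9 TPM and Timp3, an inhibitor of matrix proteases, from 0.578, 0.389 and 0.577 to 17.0, 14.6 and 17.4 TPM. Ly6a, which encodes Sca-1, rose from 3263, 6666 and 6006 to 14001, 13664 and 11218 TPM and was among the most abundant transcripts of both groups.

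A few transcripts were close to absent in 1 genotype. Genes under 0.5 TPM in every library of a genotype and at 5 TPM or more in every library of the other numbered 7 for GLUT3-deficient and 1 for wild type. The 7 were Atp6v0e2, a subunit of the vacuolar proton pump (0.34, 0.236 and 0.164 against 9.07, 10.5 and 10.4 TPM), Gh, which encodes growth hormone (0, 0.0843 and 0.195 against 11.1, 13.5 and 11.9 TPM), Pak6, a kinase of the PAK family (0.367, 0.238 and 0.373 against 6.13, 6.71 and 5.45 TPM), Slamf8 (0, 0.214 and 0 against 6.70, 7.41 and 10.1 TPM), Tnfrsf11b, which encodes the decoy receptor osteoprotegerin (0.332, 0.123 and 0.497 against 8.30, 5.33 and 6.56 TPM), Tpm2, a tropomyosin (0.186, 0.233 and 0.149 against 8.01, 7.11 and 14.8 TPM), and Gm38326, a long noncoding RNA (0, 0 and 0.146 against 13.4, 10.6 and 20.4 TPM). In wild type it was 3110053B16Rik (12.6, 9.11 and 8.11 against 0.0515, 0 and 0.0932 TPM). Several of the low values were 0 and the others were under 0.5 TPM, so no fold is stated. In the wild-type Th17 libraries, which are in a table made separately and were not tested against these, Gh was at 0 in all 3 and 3110053B16Rik stood at 11.6, 12.5 and 13.3 TPM.

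The neighbourhood of the targeted gene was examined for changes beside the deleted gene. Distances are between the lower coordinates of 2 genes as deposited, whatever their strand. Within 1 Mb of Slc2a3, 11 of 56 other genes were tested: 4 rose, 2 fell and 5 did not pass the test. Necap1, an adaptor of clathrin vesicles which lies 146748 bases above Slc2a3 (chr6:122874557-122888943, plus strand), stood at 11.4, 7.93 and 8.53 TPM in the wild-type and 107, 97.3 and 126 TPM in GLUT3-deficient libraries (3.44 ± 0.18, adjusted p = 2.23e-05). Its 3 values within a genotype were close and the groups were far apart. Foxj2, which lies between these genes, did not pass the test (0.35, adjusted p = 0.177). On the other side Klrg1, a receptor of late effector cells, rose from 0.686, 1.14 and 0.88 to 4.94, 5.24 and 2.72 TPM, and the pseudogene Gm10420, 31831 bases below Slc2a3, fell from 14.7, 12.4 and 11.9 to 5.23, 5.04 and 6.14 TPM. The rises of Gm6637 and M6pr (126, 122 and 128 against 163, 175 and 187 TPM) and the fall of Gm10224 were lost in 1, 5 and 3 fits. Within 2 Mb 8 of 23 tested genes rose and 3 fell.

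**Figure D5:**
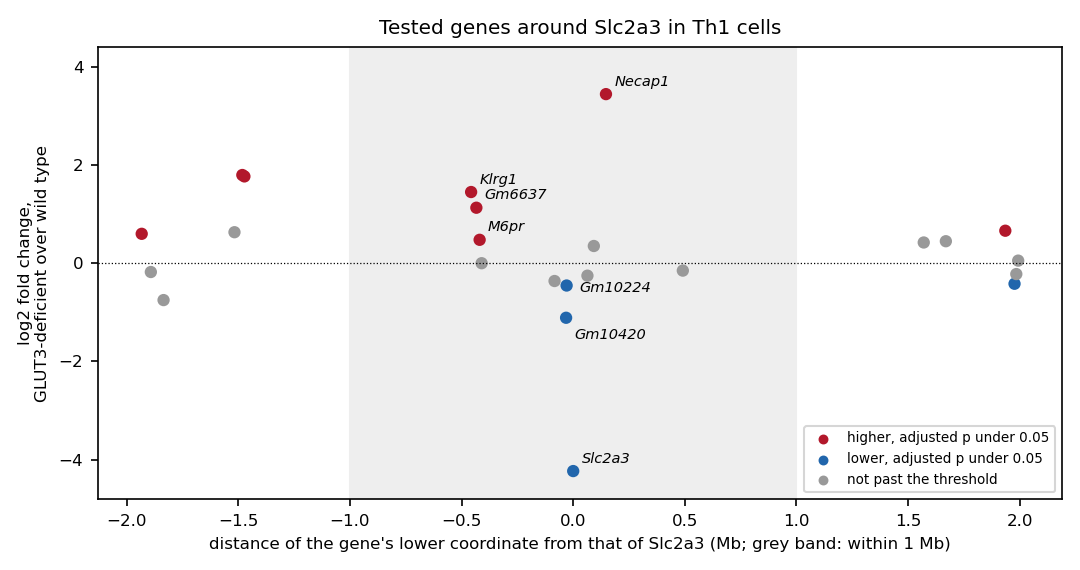
Log2 fold change of each tested gene (y axis, on log2(TPM + 1)) against the distance of its lower coordinate from that of Slc2a3 (x axis, Mb), with the window of 1 Mb shaded. Red genes rose, blue genes fell and grey genes did not pass the test; Slc2a3 lies at -4.23 and Necap1 at 3.44, and the other tested genes in the window lie between -1.11 and 1.45.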

How the data were processed

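RNA of CD4+ T cells was turned into libraries with SMART-Seq v4 and Nextera XT and read single-end at 75 nt, per the labels' protocols; these kits do not mark strand. Tools listed in the submitters' processing notes are STAR 2.7.2b, featureCounts 1.6.4, DESeq2 1.24.0, cutadapt and bcl2fastq 2.20.0.422, with the build GRCm38.p6, and the step each served is not given in the sources used here. The authors deposited TPM, 1 table for Th1 and 1 for Th17 cells, with the exon length of each gene. TPM times length gave whole reads, within 0.02 reads, for all genes.

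The libraries' groups came from GEO's labels. The main test was limma 3.58.1 in R 4.3.3 on log2(TPM + 1) with a variance trend, over the 6 Th1 libraries, Benjamini-Hochberg adjusted over all 13487 genes with 1 TPM or more in at least 3 libraries. The procedure was also run on simulated reads that had the same dispersion in every gene and in both groups. That setting differs from these libraries, in which the wild-type group varied more, and no result here rests on it. Leaving out a library, pseudocounts of 0.1 and 5, no filter or 5 TPM, scaling by the median of ratios, voom on the recovered reads and a replicate block were the alternatives. With 3 libraries a group, whether equal replicate numbers pair libraries could not be settled. Correlations of deviations from the group means were 0.186, 0.244 and -0.0727 for equal numbers and -0.329 to 0.173 for unequal ones. Between replicates of a genotype the mean chi-square per gene of the recovered reads was 14.4 to 85.3, and none was counted as a duplicate. No p-value was computed for it, and it cannot tell technical from biological replicates.

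Genes named are Slc2a3 and its neighbours, the 12 largest rises and falls in fold with a mean of at least 5 TPM and groups that do not overlap, the 10 largest in TPM, the 10 of each direction lowest in adjusted p, pre-marked list members and the 8 members lowest in adjusted p per list, genes near absent in 1 genotype, and cell type markers. These lists and the genes were chosen with earlier results of these data known. Of 1409 list entries 1382 matched a symbol in the files and 3 an older symbol. Promoters and start sites came from RefSeq (GRCm38.p6), which had one for 8855 of the genes tested, 6493 of them within 50 bases of the deposited gene start. Genes of the mitochondrial genome were not analysed here, and some genes that the naming rule selects are counted in their lists but not reported here.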

Additional observations from a re-analysis of the deposited data

How the results depend on the processing

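Of 244 tested genes named above, 10 lost a call in at least 1 of the alternative fits, 12 gained one, and the other 222 stayed on the same side of the threshold in each fit that tested them; some low genes were not tested in the fit at 5 TPM, and none of the called genes reversed. The number of genes that passed ran from 2767 to 4705 over the fits that left out 1 library, with 1570 to 2600 higher and 1197 to 2105 lower, and was lowest without GLUT3-deficient replicate 1; these fits have fewer libraries. With a replicate block it was 4479, although whether equal numbers pair the libraries was not settled, and no named gene lost its call. It was 3696 with no filter and 3408 with a filter at 5 TPM, under which fewer genes were tested, and 4512 with voom, where 46.7% of calls were higher against 56.3%; the cause of that split was not tested. With voom, falls numbered 21 in the ATF4 list, 11 among hypoxia genes, 5 each among cytokines and naive and memory genes and 4 among inhibitory receptors. With no filter 13 mitosis genes rose, and 9 genes of oxidative phosphorylation, 7 of the ATF4 list and 6 of ribosome biogenesis fell. Groups did not overlap for 6498 genes after scaling by the median of ratios. With a low limit of 1 TPM in place of 0.5, 15 genes were near absent in wild type and 1 in GLUT3-deficient cells. At 3 reads, a gene with 1 kb of exon reads 0.19 to 0.35 TPM. Genes under 1 TPM in every library did not pass the filter, so their changes were not tested in the main fit.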
